A study of Homo sapiens with 9 samples.

Results

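The HOX cluster genes comprised 39 genes of the 60617 in the count tables, chosen by their GENCODE symbol, which had to consist of HOX, a cluster letter from A to D and a number. PC-3 cells are an established line from a human prostate cancer and grow without androgen. The transcriptome was measured by RNA-seq in 9 libraries of this 1 cell line. The control group (3 libraries) received the vehicle, sulfuric acid and ethanol in PBS. The decitabine group (3 libraries) received 1 µM of decitabine, a cytidine analog that traps DNA methyltransferases and lowers DNA methylation. The combination group (3 libraries) received 1 µM of decitabine and 200 µM of S-adenosylmethionine (SAM), the methyl donor of the cell. All groups were treated for 5 days. The study also used SAM by itself, which was not analysed here.

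HOX genes encode homeodomain transcription factors that give cells their position along the head-to-tail axis of the embryo and along the limb. In each of the 4 clusters the genes lie in the order of their paralogous groups, with low numbers expressed towards the head and high numbers towards the tail and the urogenital tract. Their silent state is held by Polycomb complexes, and DNA methylation over HOX clusters is a common change in cancer. In the prostate, HOXB13 is a marker of the luminal lineage and a partner of the androgen receptor.

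In GRCh38 coordinates, the 11 HOXA genes lay on the minus strand of chromosome 7. The 10 HOXB genes spanned chromosome 17 from 48528526 to 48728750 on the minus strand. The 9 HOXC genes spanned chromosome 12 from 53938831 to 54056030 on the plus strand, and the 9 HOXD genes spanned chromosome 2 from 176092721 to 176190907 on the plus strand. In all 4 clusters, the genes of the highest paralogous groups lay at the 5′ end of the transcribed strand.

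Decitabine acts on the methylation of cytosines in CG dinucleotides (CpG sites), so the promoter sequences of HOX genes were searched for them. The RefSeq table (GRCh38.p14) held 27 windows, each from 250 bases before to 50 bases after a transcription start, for 20 of the 39 genes. These windows held a median of 22 CpG sites and ranged from 0 to 44, against a median of 14 over all 35116 promoter windows in the table, of which 96.0% held at least 1. Several of the windows belonged to HOXA3. HOXC was covered only by HOXC4 and HOXC5, which shared the same window, and HOXB only by HOXB1. The summary thus covers mainly HOXA and HOXD genes. The dinucleotide searched was CG, which reads the same on both strands. The windows of 3 genes with different responses are printed here, each 5′ to 3′ on the strand of its gene, with every CG in capitals. HOXA13 (chr7:27200042-27200341, minus strand) had 44 CpG sites, and 4.19% of all windows had as many or more. HOXD1 (chr2:176188418-176188717, plus strand) had 36 CpG sites, and 12.7% had as many or more. HOXD4 (chr2:176151300-176151599, plus strand) had 4 CpG sites, and 75.5% had as many or more. Methylation of these windows was not measured in the libraries analysed here.
HOXA13: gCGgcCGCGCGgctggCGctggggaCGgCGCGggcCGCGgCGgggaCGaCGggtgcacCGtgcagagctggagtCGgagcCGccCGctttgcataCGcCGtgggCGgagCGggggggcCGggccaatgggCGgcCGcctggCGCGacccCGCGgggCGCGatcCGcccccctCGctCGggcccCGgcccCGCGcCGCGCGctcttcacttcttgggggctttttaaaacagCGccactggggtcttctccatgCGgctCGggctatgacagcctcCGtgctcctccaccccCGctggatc
HOXD1: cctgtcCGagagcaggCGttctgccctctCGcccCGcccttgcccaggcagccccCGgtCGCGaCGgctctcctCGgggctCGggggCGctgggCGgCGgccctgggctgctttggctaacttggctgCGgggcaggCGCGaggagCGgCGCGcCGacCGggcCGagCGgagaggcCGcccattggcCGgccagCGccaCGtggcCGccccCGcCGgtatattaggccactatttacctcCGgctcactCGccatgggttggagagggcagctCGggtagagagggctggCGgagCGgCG
HOXD4: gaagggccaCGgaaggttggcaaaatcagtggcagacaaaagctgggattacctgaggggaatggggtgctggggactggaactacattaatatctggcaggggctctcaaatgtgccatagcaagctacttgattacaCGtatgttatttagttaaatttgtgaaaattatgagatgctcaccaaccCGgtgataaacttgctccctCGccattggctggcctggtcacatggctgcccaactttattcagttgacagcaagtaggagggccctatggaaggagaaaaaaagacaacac

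HOXA13, with the highest number of CpG sites of these windows, fell with both treatments, HOXD1 rose with both, and HOXD4 passed the test with neither. The values are given with each cluster. Of the genes not printed, HOXD8 (34 sites) and HOXA7 (31) rose with both treatments, and HOXA6 (29) and HOXD3 (25) were called with neither. HOXA11 (13) rose after the combination. Whether the number of CpG sites goes with the response was not tested.

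The libraries held between 21934307 and 22489684 estimated counts. Levels are given as counts relative to library size (CPM) scaled by the trimmed mean of M-values (TMM), with scaling factors of 0.895 to 0.902 in control libraries and 1.033 to 1.078 in the treated libraries. A gene was called at a p under 0.05 in the quasi-likelihood test of edgeR, after Benjamini-Hochberg adjustment over the 18532 genes tested. The labels do not say that libraries came from separate cultures, so p-values measure the spread between these libraries. Summed CPM of 5 epithelial markers was 874 to 955 in control libraries, 868 to 920 after decitabine and 725 to 866 after the combination. The 4 luminal markers summed to at most 0.197 in control libraries, 0.632 to 1.31 after decitabine and 0.615 to 0.870 after the combination, the 1 tested rose with each treatment, and KLK3 had no counts in any library. The 6 fibroblast markers, none of them at 0 in any group, summed to 5.92 to 8.05 in control libraries, 96.9 to 137 after decitabine and 86.8 to 110 after the combination, and 5 of the 6 rose with each treatment. The 5 leukocyte markers summed to 0.198 to 0.350 in control libraries, where 2 of them had no counts, 1.69 to 2.32 after decitabine and 1.54 to 1.91 after the combination, and both that were tested rose with each treatment. The part of these markers in the results on HOX genes was not tested. In bulk RNA, a change in the number of cells that express a gene and a change in the RNA per cell cannot be told apart.

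The question of the first 2 comparisons was which genes responded to each treatment. With decitabine, 19 of the 35 HOX genes tested rose, 3 fell and 13 were not called. Over all genes tested, 36.3% rose and 32.5% fell. With the combination, 23 of 35 rose, 2 fell and 10 were not called, while 35.9% of all genes rose and 31.3% fell. The median log2 fold change of the HOX genes was 0.85 after decitabine and 0.94 after the combination, against 0.03 and 0.05 over all genes. Setting the genes without control counts at their lower bound could not move these medians, since the bounds lie above them. The medians include genes with control means under 0.5 CPM, a level at which the median over all tested genes was 2.90 and 2.74. The 3 control libraries lay below the 3 decitabine libraries in 20 HOX genes and above them in 3, against 38.0% and 34.8% of all genes. For the combination the counts were 22 and 2, against 37.9% and 33.6%. Both comparisons used the same 3 control libraries. With library size as the only scaling, the median over all genes moved to 0.28 and 0.27, 23 and 27 HOX genes rose and 2 fell in each comparison. In the same setting 8849 genes rose and 3746 fell after decitabine, against 6729 and 6030 with TMM, and 8695 rose and 3857 fell after the combination, against 6647 and 5799.

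The share called differed with the control level. Of the 15 HOX genes with a control mean under 0.5 CPM, 11 were tested. A gene at such a level passes the filter on low counts mostly through treated libraries in which it is high, so that a rise is favoured by the filter. With each treatment 10 of these 11 rose, against 82.7% and 79.5% of all genes at such levels. Among the 12 HOX genes between 0.5 and 5 CPM, 5 rose after decitabine and 7 after the combination and 0 fell, where 40.2% and 37.3% of all genes at this level rose and 13.8% and 15.3% fell. Among the 12 HOX genes with at least 5 CPM, 4 rose and 3 fell after decitabine, and 6 rose and 2 fell after the combination. Over all genes of this level, 22.2% rose and 47.8% fell after decitabine, and 23.3% and 45.3% after the combination.

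By cluster, 4 HOXA genes rose and 2 fell of 11 after decitabine, 5 rose and 1 fell of 8 tested HOXB genes, 3 rose and 0 fell of 7 tested HOXC genes, and 7 rose and 0 fell of 9 HOXD genes. With the combination the counts were 6 and 1 for HOXA, 5 and 1 for HOXB, 6 and 0 for HOXC, and 6 and 0 for HOXD. The median log2 fold change after decitabine was 0.19 in HOXA, 1.06 in HOXB, 0.34 in HOXC and 2.13 in HOXD. With the combination it was 0.52, 1.13, 1.05 and 1.95 in the same order. Over all genes tested, 36.3% rose and 32.5% fell after decitabine, and 35.9% and 31.3% after the combination. The clusters differed in control level. Of the tested genes, HOXB2, HOXB4, HOXB7, HOXC5, HOXC9, HOXC12, HOXD1 and HOXD9 to HOXD12 had control means under 0.5 CPM, and no HOXA gene did. At such levels 82.7% and 79.5% of all tested genes rose. Along the axis, 4 of 7 tested genes of paralogous groups 1 to 3 rose with each treatment and 0 fell. Of 13 tested genes of groups 4 to 8, 6 rose after decitabine, 9 after the combination and 0 fell with either. Of 15 tested genes of groups 9 to 13, 9 rose and 3 fell after decitabine, and 10 rose and 2 fell after the combination. All HOX genes that fell thus belonged to groups 9 to 13. These genes, HOXA9, HOXA13 and HOXB13, also had the highest control means of the HOX genes, at 41.5, 47.5 and 590 CPM. Of all genes with at least 5 CPM in control libraries, 47.8% fell after decitabine and 45.3% after the combination. The part of the control level in this pattern was not tested. Of the central groups, HOXC4 also fell in the unfiltered fit, and HOXD4 was called lower after the combination under 2 alternatives, as given with their clusters.

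**Figure D1:**
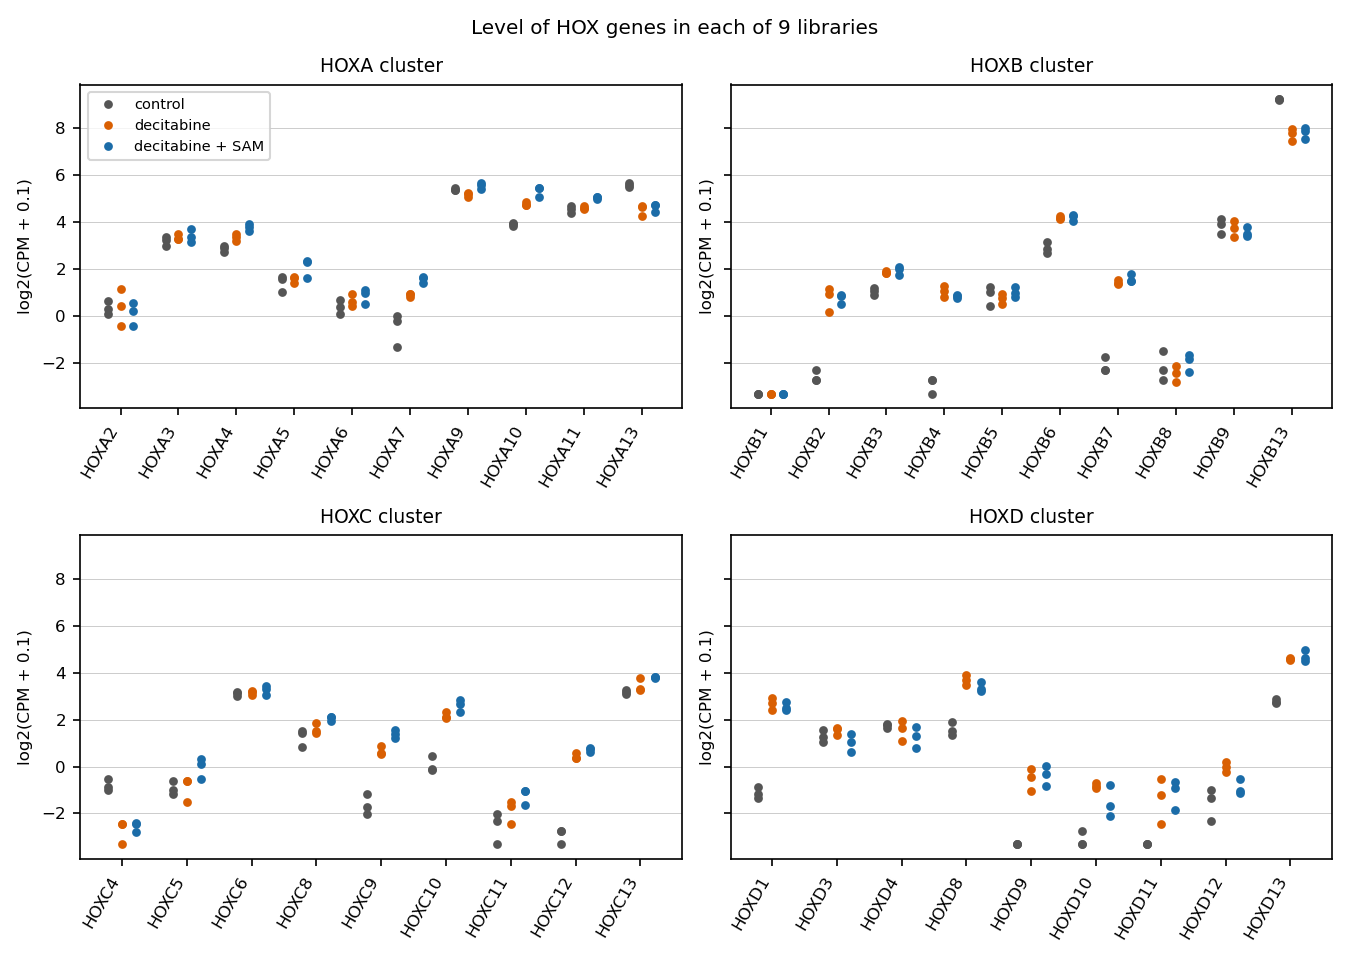
Level of HOX genes, as log2 of TMM-scaled CPM plus 0.1, on the vertical axis, in 3 control, 3 decitabine and 3 combination libraries (points), by cluster and paralogous group. HOXD9 and HOXD11 had no counts in control libraries, and HOXA13 and HOXB13 were lower in all treated libraries than in all controls.

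Levels of different genes were compared as CPM per kilobase of exons, averaged over the libraries of a group. HOXB13 led the controls at 194, followed by HOXA9 at 13.7, HOXA13 at 9.36, HOXA11 at 8.65 and HOXB9 at 5.60. With decitabine HOXB13 stood at 70.3, HOXA9 at 11.7, HOXD13 at 9.88, HOXA11 at 9.02 and HOXA10 at 7.30. With the combination the order was HOXB13 at 74.1, HOXA9 at 15.2, HOXA11 at 12.2, HOXA10 at 10.9 and HOXD13 at 10.8. HOXA13 moved from rank 3 in control libraries to ranks 11 and 9, and HOXD13 from rank 11 to ranks 3 and 5. HOXD1 moved from rank 26 to rank 12 with each treatment. The number of HOX genes with at least 1 CPM was 20 to 23 in the control libraries, 29 to 31 after decitabine and 29 to 31 after the combination.

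The summed CPM of all HOX genes was 803 ± 10.4 (SD, n = 3) in control libraries, 482 ± 31.8 after decitabine and 539 ± 60.8 after the combination. Without HOXB13 the sum was 213.7 ± 3.30, 268.8 ± 6.06 and 313.7 ± 24.6 in the same order. The total was lower and the remainder higher in all treated libraries than in all controls. HOXB13 made up 73.2% to 73.8% of the HOX signal in control libraries, 38.9% to 48.7% after decitabine and 39.3% to 43.5% after the combination. The HOXD sum was 16.0 ± 0.885 in control libraries, 51.2 ± 1.38 after decitabine and 48.4 ± 6.63 after the combination. The HOXC sum was 21.99 ± 0.746, 30.5 ± 3.85 and 38.9 ± 2.86. The HOXA sum was 149.8 ± 2.53, 144.7 ± 1.30 and 184.5 ± 17.1. Its ratio of decitabine to control was 0.966 with TMM and 1.15 with library size as the only scaling, so its direction depended on the scaling. These sums were compared without a test, since the genes of a cluster are not replicates.

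HOXB13, which lies at the 5′ end of the HOXB cluster (chromosome 17, 48724763 to 48728750), had 580, 594 and 596 CPM in the 3 controls, 249, 217 and 174 after decitabine and 256, 235 and 185 after the combination. Every treated library lay below every control, and the 2 treatments overlapped. The log2 fold change was -1.46 ± 0.13 (SE) after decitabine (edgeR adjusted p = 1.5e-06) and -1.39 ± 0.13 after the combination (edgeR adjusted p = 2.4e-06), which is 2.76-fold and 2.61-fold lower. Between the treatments it was 0.08 ± 0.13 (edgeR adjusted p = 0.73).

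PRAC1 and PRAC2, named for their expression in prostate, rectum and colon, lie within the HOXB span next to HOXB13. PRAC1 had 60.3, 57.2 and 44.1 CPM in control libraries, 14.3, 14.6 and 12.9 after decitabine and 17.7, 19.1 and 13.2 after the combination. It fell in all treated libraries below all controls, by 1.95 and 1.69 on the log2 scale (edgeR adjusted p = 8.6e-08 and 2.9e-07). PRAC2 had 10.6, 10.998 and 7.74 CPM in control libraries, 6.21, 6.91 and 8.50 after decitabine and 12.4, 10.8 and 9.82 after the combination. It fell after decitabine by 0.44 (edgeR adjusted p = 0.025), was not called after the combination against control (edgeR adjusted p = 0.34), and was higher after the combination than after decitabine by 0.61 (edgeR adjusted p = 0.02). Both genes were named here for their place in the cluster.

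Of the other HOXB genes, those tested rose or were not called. HOXB2, which patterns the hindbrain, had 0.0496, 0.09998 and 0.0493 CPM in control libraries, 1.01, 1.81 and 2.11 after decitabine and 1.30, 1.67 and 1.74 after the combination. HOXB7 had 0.0992, 0.09998 and 0.197 CPM in control libraries, 2.41, 2.74 and 2.49 after decitabine and 2.70, 3.30 and 2.64 after the combination. In both genes all treated libraries lay above all controls. The log2 fold changes of HOXB2 were 4.52 ± 0.48 and 4.46 ± 0.49 (edgeR adjusted p = 1.4e-06 and 1.8e-06), and those of HOXB7 were 4.21 ± 0.32 and 4.38 ± 0.32 (edgeR adjusted p = 5.2e-08 and 3.2e-08). Over the 3 controls HOXB2 had 4 counts and HOXB7 had 8, levels at which the filter favours a rise. Under the alternatives the values after decitabine ranged from 4.18 to 4.9 for HOXB2 and from 4.04 to 4.59 for HOXB7. HOXB4, known for its part in blood stem cells, had 2 counts over the 3 controls, 141 counts over the decitabine libraries and 116 over the combination libraries. The ratio to control was 59.9 (95% interval 16.3 to 499.8) after decitabine and 50.6 (13.7 to 422.8) after the combination. This interval covers counting error only, as do all intervals and lower bounds given here.

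HOXB6 had 6.20, 7.15 and 8.78 CPM in control libraries, 17.1, 18.7 and 17.8 after decitabine and 19.7, 19.0 and 16.4 after the combination. It rose by 1.28 ± 0.13 and 1.31 ± 0.13 on the log2 scale (edgeR adjusted p = 7e-07 and 5.6e-07), with no overlap with the controls. HOXB6 shared 16.6% of its exon bases with HOXB3 on the same strand, which had 1.73 to 2.18 CPM in control libraries, 3.42 to 3.67 after decitabine and 3.22 to 4.08 after the combination. HOXB3 rose by 0.85 and 0.94 (edgeR adjusted p = 0.00084 and 0.00039). HOXB9, the most highly expressed HOXB gene per kilobase after HOXB13 in control libraries, had 17.5, 14.9 and 11.05 CPM there, 10.1, 13.4 and 16.2 after decitabine and 10.3, 11.1 and 13.5 after the combination. Its groups overlapped in each comparison and it was not called. HOXB5, at 1.24 to 2.20 CPM in all libraries, was not called either. HOXB8 had 1 to 5 counts per library and was not tested. HOXB1, the most anterior HOXB gene, had 0 counts in all 9 libraries.

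HOXA13, which acts in the development of the digits and the urogenital tract, had 44.5, 47.2 and 50.8 CPM in control libraries, 25.5, 24.3 and 18.8 after decitabine and 25.9, 26.3 and 21.3 after the combination. All treated libraries lay below all controls. It fell by 1.05 ± 0.12 and 0.96 ± 0.12 on the log2 scale (edgeR adjusted p = 1.9e-06 and 4.9e-06). Between the treatments its log2 fold change was 0.10 ± 0.12 (edgeR adjusted p = 0.62). HOXD13, the HOXD gene of the same paralogous group with a shared part in limb and urogenital development, went the other way. It had 7.19, 6.399 and 6.71 CPM in control libraries, 24.7, 23.0 and 23.8 after decitabine and 31.4, 24.6 and 22.6 after the combination, so that all treated libraries lay above all controls. It rose by 1.82 ± 0.13 and 1.95 ± 0.12 (edgeR adjusted p = 1.9e-08 and 9.2e-09), and the treatments overlapped. Between them the log2 fold change was 0.13 ± 0.11 (edgeR adjusted p = 0.45). HOXC13, the remaining member of that group beside HOXB13 and known for its part in hair and nails, had 9.43, 8.30 and 9.03 CPM in control libraries, 9.50, 9.81 and 13.7 after decitabine and 13.7, 13.9 and 14.0 after the combination. The decitabine libraries lay above the controls, by 0.30 on the log2 scale, and were not called (edgeR adjusted p = 0.064). They were called with DESeq2's size factors, with library size alone and without decitabine library 1 or 2, where the value was 0.32, 0.55, 0.39 and 0.37 (edgeR adjusted p = 0.0034 to 0.049). HOXC13 rose by 0.64 ± 0.14 after the combination (edgeR adjusted p = 0.00081). The difference between the treatments was not called (edgeR adjusted p = 0.1), except without decitabine library 3 (0.52, edgeR adjusted p = 0.0085).

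**Figure D2:**
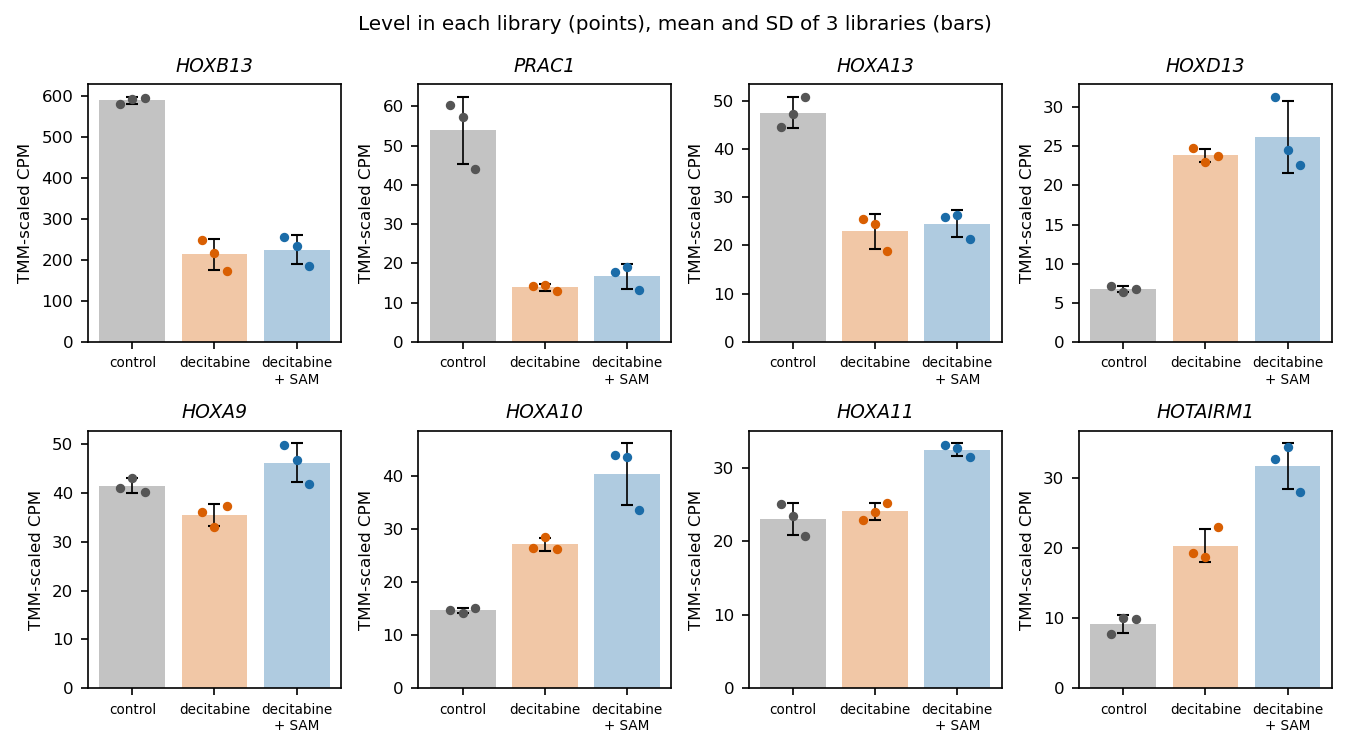
TMM-scaled CPM on linear axes that start at 0, with bars at the mean of 3 libraries, error bars of 1 SD and a point for each library, for 6 HOX genes, PRAC1 and the antisense transcript HOTAIRM1. HOXB13, PRAC1 and HOXA13 lay below the controls in all treated libraries, HOXD13 above them, and HOXA9, HOXA10, HOXA11 and HOTAIRM1 were higher after the combination than after decitabine in all libraries.

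In the HOXA cluster, HOXA2 had 0.634 to 2.11 CPM over all libraries and was not called with either treatment. HOXA3, needed for the thymus and parathyroid glands, had 10.1, 9.15 and 7.79 CPM in control libraries, 9.54, 11.2 and 9.47 after decitabine and 10.1, 12.8 and 8.63 after the combination. HOXA3 was not called with either treatment, except with library size as the only scaling (0.41 and 0.44, edgeR adjusted p = 0.025 and 0.017), and the groups of both genes overlapped in all comparisons.

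HOXA7 had 0.298, 0.750 and 0.888 CPM in control libraries, 1.77, 1.64 and 1.82 after decitabine and 2.91, 2.99 and 2.51 after the combination. It rose by 1.43 ± 0.30 and 2.11 ± 0.29 (edgeR adjusted p = 0.00076 and 1.8e-05), and the 3 groups did not overlap. The antisense transcript HOXA-AS3 covered 62.5% of the exon bases of HOXA7 on the opposite strand and rose as well, by 2.10 and 2.25 (edgeR adjusted p = 6.7e-05 and 3.5e-05). Whether the counts were made by strand is not given in the sources used here, so reads of overlapping genes on opposite strands cannot be told apart. HOXA5, which acts in lung development, had 1.89, 2.999 and 2.81 CPM in control libraries, 2.998, 2.91 and 2.49 after decitabine and 4.74, 4.96 and 2.89 after the combination. It was not called after decitabine (edgeR adjusted p = 0.66). It was called after the combination (log2 fold change 0.71 ± 0.23, edgeR adjusted p = 0.015), although its lowest combination library lay below 1 control. Without control 1 the log2 fold change was 0.52, without combination library 1 it was 0.60 and without combination library 2 it was 0.57, and the call was lost in each case (edgeR adjusted p = 0.059 to 0.077). HOXA6 lay between 0.943 and 2.04 CPM in all libraries and was not called.

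In the HOXC cluster, 3 genes of low control level rose with both treatments. HOXC10, which takes part in the identity of lumbar motor neurons, had 0.794, 1.25 and 0.839 CPM in control libraries, 4.26, 4.13 and 4.86 after decitabine and 7.001, 6.24 and 4.89 after the combination. It rose by 2.20 ± 0.23 and 2.65 ± 0.22 on the log2 scale (edgeR adjusted p = 9.2e-07 and 1.3e-07), with all treated libraries above all controls. HOXC12 had 2 counts over the controls, 89 over the decitabine libraries and 107 over the combination libraries. The ratio to control was 37.8 (95% interval 10.2 to 317.2) after decitabine and 46.7 (12.6 to 390.4) after the combination. HOXC9, the third gene, is described with the difference between the treatments. HOXC9 and HOXC12 had control means under 0.5 CPM, where the filter favours a rise.

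HOXC8 had 1.69, 2.60 and 2.76 CPM in control libraries, 2.62, 2.74 and 3.55 after decitabine and 4.17, 4.26 and 3.74 after the combination. It was not called after decitabine (edgeR adjusted p = 0.17, and 0.027 with library size alone) and rose by 0.79 ± 0.21 after the combination (edgeR adjusted p = 0.004), whose libraries lay above all others. HOXC5 had 0.397, 0.550 and 0.345 CPM in control libraries, 0.253, 0.548 and 0.550 after decitabine and 1.13, 0.967 and 0.595 after the combination. It was called after the combination (log2 fold change 1.05 ± 0.39, edgeR adjusted p = 0.027), and the call was lost with DESeq2 and without control 1, control 3, combination library 1 or combination library 2, where the log2 fold change was between 0.84 and 1.07 (adjusted p = 0.071 to 0.11). Of its exon bases, 67.3% were shared with unnamed genes on the same strand. HOXC6 had 8.58, 7.95 and 8.98 CPM in control libraries, 8.82, 8.09 and 9.22 after decitabine and 9.78, 10.6 and 8.25 after the combination, with overlapping groups and no call. HOXC11 had 0 to 9 counts per library and was not tested. In the fit without the filter on low counts HOXC11 was called higher after the combination (log2 fold change 1.905, edgeR adjusted p = 0.027). After decitabine it was not called there (edgeR adjusted p = 0.34).

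HOXC4 went in the other direction from its cluster. It had 9, 12 and 8 counts in control libraries, 0, 2 and 2 after decitabine and 2, 1 and 2 after the combination, so that all treated libraries lay below all controls. It did not pass the filter on low counts. In the fit without that filter its log2 fold change was -3.01 after decitabine and -2.67 after the combination (edgeR adjusted p = 0.00016 and 0.00061). It shared 17.5% of its exon bases with HOXC6 and an unnamed gene on the same strand, which had 11, 0 and 9 counts in the combination libraries and at most 2 in any other, so its level is uncertain.

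**Figure D3:**
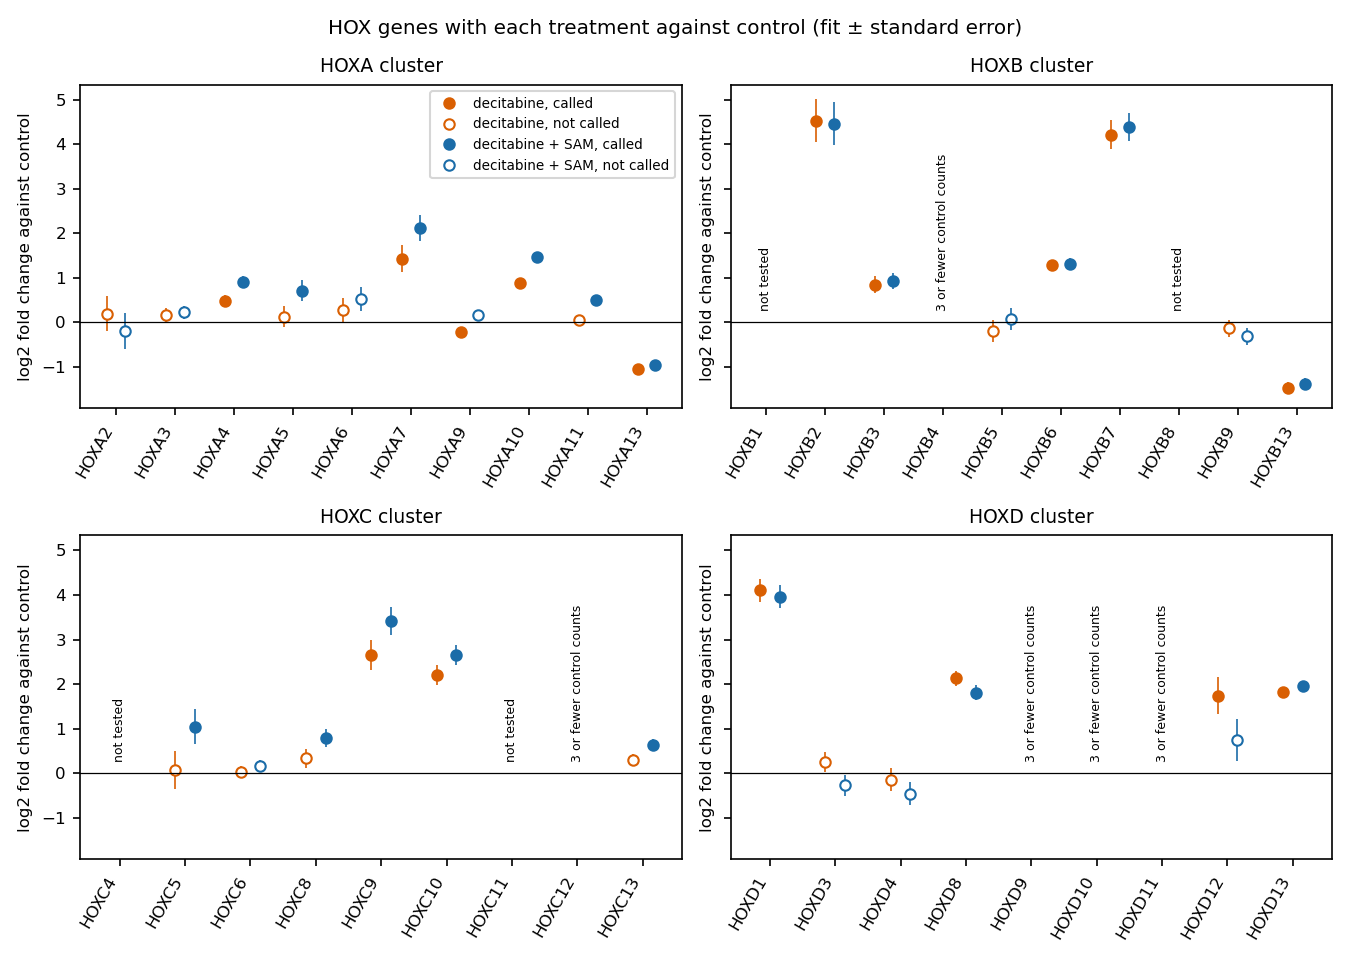
Log2 fold change against control after decitabine and after the combination for tested HOX genes by cluster, with standard errors as bars and filled points for an adjusted p under 0.05. Genes with 3 or fewer control counts are left blank, since their fitted values depend on the prior count. HOXA13 and HOXB13 lay below 0 with both treatments, and HOXD1, HOXD8 and HOXD13 above 1.

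In the HOXD cluster, all called genes rose. HOXD1, at the 3′ end of the cluster and known for its part in pain-sensing neurons, had 0.347, 0.300 and 0.444 CPM in control libraries, 5.19, 6.36 and 7.48 after decitabine and 5.17, 5.45 and 6.64 after the combination. All treated libraries lay above all controls and the treatments overlapped. It rose 17.2-fold and 15.6-fold, with log2 fold changes of 4.10 ± 0.25 and 3.96 ± 0.25 (edgeR adjusted p = 5.9e-09 and 8.8e-09). Its control mean was under 0.5 CPM, where the filter favours a rise. Between the treatments the log2 fold change was -0.14 ± 0.17 (edgeR adjusted p = 0.61). Its exons overlapped genes on the opposite strand, among them HAGLR, over 60.1% of their bases, and HAGLR rose by 2.80 and 2.54 (edgeR adjusted p = 4.7e-09 and 1.3e-08). HOXD8 had 2.78, 3.60 and 2.47 CPM in control libraries, 12.8, 14.9 and 10.95 after decitabine and 12.0, 9.84 and 9.19 after the combination. It rose by 2.13 ± 0.17 and 1.81 ± 0.18 (edgeR adjusted p = 9.7e-08 and 5.6e-07), with no overlap with the controls.

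Between HOXD8 and HOXD13 lie 4 genes that were nearly silent in control libraries, a level at which the filter favours a rise. HOXD9 had no counts in control libraries, 9, 20 and 15 counts after decitabine and 16, 21 and 11 after the combination, which was at least 12.5-fold and 14.0-fold higher against a floor of 3 counts over the group. HOXD11 had no counts in control libraries, 2, 8 and 14 after decitabine and 4, 12 and 10 after the combination, at least 6.80-fold and 7.56-fold higher. HOXD10 had 1 count over the controls, 33 over the decitabine libraries and 19 over the combination libraries, a ratio of 28.1 (95% interval 4.70 to 1141) and 16.6 (2.64 to 688.7). HOXD10 and HOXD11 shared 18.2% and 21.4% of their exon bases with each other, so their counts are uncertain. HOXD12, a gene of digit development, had 0.0992, 0.400 and 0.296 CPM in control libraries, 0.887, 1.05 and 0.761 after decitabine and 0.391, 0.351 and 0.595 after the combination. It rose after decitabine by 1.75 ± 0.42 (edgeR adjusted p = 0.0019) and was not called after the combination (edgeR adjusted p = 0.17). The combination libraries lay below the decitabine libraries, but the difference between the treatments was not called (edgeR adjusted p = 0.083).

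HOXD3 and HOXD4 lie between HOXD8 and HOXD1 and were not called in any comparison. HOXD3 ranged from 1.45 to 3.04 CPM over all libraries. HOXD4 had 3.27, 3.45 and 3.01 CPM in control libraries, 3.76, 3.03 and 2.03 after decitabine and 3.09, 2.37 and 1.62 after the combination. All 3 groups overlapped. The log2 fold change after the combination was -0.46 (edgeR adjusted p = 0.13). It was called lower with the replicate number as a block (-0.49, edgeR adjusted p = 0.042) and without combination library 1 (-0.71, edgeR adjusted p = 0.036).

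The combination was then compared after decitabine alone to see which genes changed when SAM was added. Of the 35 HOX genes tested, 5 were higher, 0 were lower and 30 were not called, while 7.67% of all genes were higher and 8.02% lower. At an unadjusted p under 0.05 there were 13 of the 35 HOX genes, against 31.5% of all genes. DESeq2 called 4 higher and 0 lower, and voom with limma called 5 higher and 0 lower. The combination libraries lay above the decitabine libraries in 11 HOX genes and below them in 1, against 17.2% and 16.8% of all genes. The median log2 fold change was 0.13 for the HOX genes and 0.00214 for all genes. The 5 genes were HOXA4, HOXA9, HOXA10, HOXA11 and HOXC9.

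HOXA10, known for its part in the uterus and in leukaemia, had 14.6, 14.1 and 15.1 CPM in control libraries, 26.5, 28.5 and 26.2 after decitabine and 43.8, 43.4 and 33.5 after the combination. The 3 groups did not overlap. It rose after decitabine by 0.89 ± 0.11 and after the combination by 1.46 ± 0.11 on the log2 scale (edgeR adjusted p = 4.4e-06 and 3.2e-08), and it was higher after the combination than after decitabine by 0.57 ± 0.10 (edgeR adjusted p = 0.003). HOXA11, which acts in the forearm and the uterus, had 25.1, 23.4 and 20.8 CPM in control libraries, 23.0, 24.0 and 25.3 after decitabine and 33.2, 32.8 and 31.5 after the combination. Controls and decitabine overlapped, and all combination libraries lay above both. The log2 fold change was 0.06 ± 0.09 after decitabine (edgeR adjusted p = 0.55), which turned to -0.02 without control 3 and was 0.31 and called with library size alone (edgeR adjusted p = 0.0061). It was 0.49 ± 0.09 after the combination (edgeR adjusted p = 0.00017), and 0.43 ± 0.09 between the treatments (edgeR adjusted p = 0.006). HOXA11-AS covered 27.2% of the exon bases of HOXA11 on the opposite strand and differed between the treatments by 0.06 (edgeR adjusted p = 0.74). HOXA10 shared 9.93% of its exon bases with an unnamed gene on the same strand and 16.4% with HOXA10-AS on the opposite strand. HOXA10-AS differed between the treatments by 0.32 (edgeR adjusted p = 0.12). HOXA10 and HOXA11 were called between the treatments under all 17 alternative settings.

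HOXA9, a regulator of blood progenitors, had 41.1, 43.1 and 40.2 CPM in control libraries, 36.1, 33.1 and 37.4 after decitabine and 49.8, 46.7 and 41.9 after the combination. The decitabine libraries lay below and the combination libraries overlapped with the controls. It fell after decitabine by 0.22 ± 0.08 (edgeR adjusted p = 0.029), although with library size as the only scaling the value was 0.02, without control 2 it was -0.20, without decitabine library 2 it was -0.18 and with DESeq2 it was -0.20, and the call was lost in each case (adjusted p = 0.052 to 0.8). Between the treatments it was higher after the combination by 0.38 ± 0.08 (edgeR adjusted p = 0.0093). That call was lost without decitabine library 2 (0.33) and without combination library 2 (0.37). HOXA9 shared 15.9% of its exon bases with an unnamed gene and a microRNA gene on the same strand, and 13.9% with HOXA10-AS on the opposite strand.

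HOXA4 had 6.4997, 7.70 and 7.30 CPM in control libraries, 8.82, 10.02 and 11.03 after decitabine and 14.7, 13.7 and 12.1 after the combination, with no overlap among the 3 groups. It rose by 0.48 ± 0.13 after decitabine and 0.91 ± 0.13 after the combination (edgeR adjusted p = 0.0043 and 1.9e-05), and differed between the treatments by 0.44 ± 0.12 (edgeR adjusted p = 0.028). The last call was lost without decitabine library 1 (0.36) or 2 (0.44) and without combination library 1 (0.37) or 2 (0.43). HOXA4 shared 31.3% of its exon bases with an unnamed gene on the same strand. HOXC9, which acts in the identity of thoracic motor neurons, had 0.149, 0.200 and 0.345 CPM in control libraries, 1.35, 1.73 and 1.40 after decitabine and 2.87, 2.50 and 2.21 after the combination, again without overlap. It rose by 2.66 ± 0.33 and 3.42 ± 0.32 (edgeR adjusted p = 7e-06 and 3.6e-07) and differed between the treatments by 0.76 ± 0.23 (edgeR adjusted p = 0.04). That call was lost with DESeq2 and without control 2, any 1 decitabine library or combination library 1 or 2, where the value was between 0.66 and 0.88.

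By position, the fitted difference between the treatments was above 0 in all 7 genes from HOXA4 to HOXA11, from 0.24 to 0.68 with a median of 0.44, and the libraries did not overlap in 5 of them. In HOXA2, HOXA3 and HOXA13 it was from -0.38 to 0.10. It was above 0 in all 7 tested HOXC genes, from 0.13 to 0.98, of which 6 did not overlap and 1 was called. In HOXB it lay between -0.24 and 0.26 with overlap in all 8 genes, and in HOXD between -1.001 and 0.16, with 3 values above and 6 below 0. Over all genes tested, 17.2% lay higher and 16.8% lower without overlap. The HOXA run was set after the values were seen, its genes are neighbours, and no test was made over it.

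**Figure D4:**
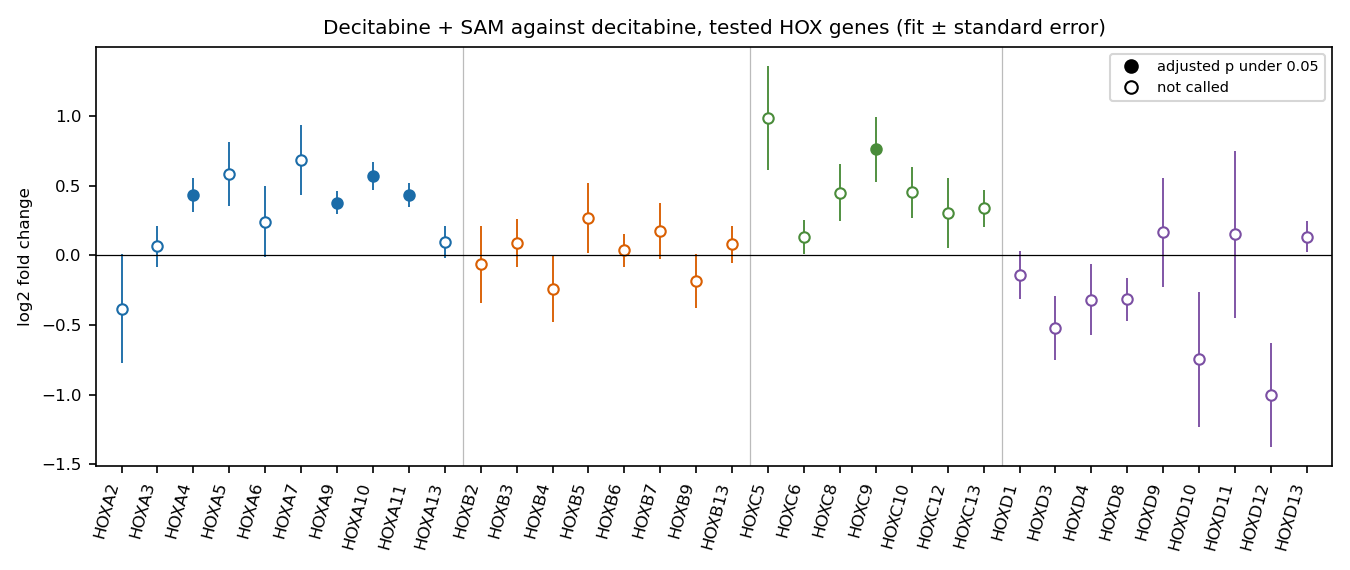
Log2 fold change of the combination against decitabine, with standard errors as bars, for tested HOX genes in the order of cluster and paralogous group, separated by vertical lines between clusters. Filled points mark HOXA4, HOXA9, HOXA10, HOXA11 and HOXC9, which had an adjusted p under 0.05, and all 7 values from HOXA4 to HOXA11 lay above 0.

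Long noncoding RNAs of the clusters were looked at beside the coding genes. Of 18 that matched, 13 were tested, of which 9 rose and 0 fell after decitabine, 9 rose and 1 fell after the combination, and 1 was higher and 1 lower between the treatments. Over all genes, 36.3% rose and 32.5% fell after decitabine, 35.9% and 31.3% after the combination, and 7.67% were higher and 8.02% lower between the treatments. Of those tested, HOXA-AS3, HOXB-AS1, HOXC-AS2, HOTAIR and HAGLROS had control means under 0.5 CPM. At such levels the filter favours a rise, and 82.7% and 79.5% of all tested genes rose with the treatments. HOTAIRM1, a myeloid-linked antisense transcript of the HOXA cluster, had 7.74, 9.998 and 9.87 CPM in control libraries, 19.3, 18.7 and 23.1 after decitabine and 32.7, 34.4 and 28.1 after the combination. The 3 groups did not overlap. It rose by 1.15 and 1.79 on the log2 scale (edgeR adjusted p = 1.8e-06 and 2.1e-08), and was higher after the combination than after decitabine by 0.64 (edgeR adjusted p = 0.0037). HOTTIP, which lies beyond HOXA13 and is known to act on the 5′ HOXA genes, had 9.38, 9.65 and 9.87 CPM in control libraries, 10.6, 10.1 and 8.29 after decitabine and 7.17, 7.95 and 6.21 after the combination. All combination libraries lay below all others. It was not called after decitabine (edgeR adjusted p = 0.96), fell by 0.44 after the combination (edgeR adjusted p = 0.0099) and was lower after the combination than after decitabine (edgeR adjusted p = 0.036). HOXA11-AS rose by 0.34 and 0.40 (edgeR adjusted p = 0.0086 and 0.0033), and HOXA10-AS by 0.49 and 0.81 (edgeR adjusted p = 0.006 and 0.00012). Of 6 microRNA genes listed from the clusters, 0 were tested, with 1 count of MIR10B in all libraries. Mature microRNAs were not measured by these libraries.

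The cofactors of HOX proteins belong to the TALE class of homeodomain proteins. Of 8 tested, 6 rose and 2 fell after decitabine, 5 rose and 2 fell after the combination, and 0 were higher and 1 lower between the treatments, beside the same shares of all genes as for the noncoding RNAs (36.3% and 32.5%, 35.9% and 31.3%, 7.67% and 8.02%). PBX2 had 31.7 ± 0.687 CPM in control libraries, 21.7 ± 3.09 after decitabine and 15.1 ± 0.899 after the combination. It fell by 0.55 and 1.07 and was lower after the combination than after decitabine by 0.52 on the log2 scale (edgeR adjusted p = 0.00023, 5.6e-07 and 0.0059). MEIS2 rose by 0.78 and 0.58 (edgeR adjusted p = 5.7e-06 and 0.0001), PKNOX1 by 0.22 and 0.39 (edgeR adjusted p = 0.036 and 0.0013), and PBX3 by 0.30 and 0.29 (edgeR adjusted p = 0.029 and 0.035).

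Of 14 Polycomb genes, which hold HOX genes silent, 2 rose and 7 fell after decitabine, 1 rose and 6 fell after the combination, and 2 were higher and 0 lower between the treatments. All of them had at least 5 CPM in control libraries, and of all genes at that level 22.2% rose and 47.8% fell after decitabine, 23.3% and 45.3% after the combination, and 10.7% were higher and 9.03% lower between the treatments. EZH2, the methyltransferase of histone H3 lysine 27, fell from 69.1 ± 0.981 CPM to 38.6 ± 3.73 and 45.6 ± 1.96, by 0.84 and 0.60 on the log2 scale (edgeR adjusted p = 4.2e-07 and 1.1e-05). CBX6 fell by 0.98 and 0.99 and SUZ12 by 0.42 and 0.37 (edgeR adjusted p between 7.6e-08 and 0.00089). BMI1 was not called against control, and was higher after the combination than after decitabine by 0.28 (edgeR adjusted p = 0.017), as was CBX8 by 0.35 (edgeR adjusted p = 0.028). Of 12 Trithorax genes and H3K27 demethylases, which counter Polycomb, 1 rose and 7 fell after decitabine, 2 rose and 4 fell after the combination, and 1 was higher between the treatments, at control levels to which the same shares apply. The last was RBBP5, by 0.26 (edgeR adjusted p = 0.035). KMT2D was not called in any comparison. KMT2A fell after decitabine by 0.36 (edgeR adjusted p = 0.049) and was not called after the combination (edgeR adjusted p = 0.13), and WDR5 fell by 0.58 and 0.54 (edgeR adjusted p = 3.5e-05 and 7.9e-05).

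Of 8 upstream activators of HOX genes, 3 were tested. EGR2, which acts on hindbrain HOX genes such as HOXB2, rose from 0.661 ± 0.24 CPM to 22.1 ± 9.53 and 22.2 ± 5.51 (log2 fold change 5.05 and 5.06, edgeR adjusted p = 5e-05 and 5.2e-05). The retinoic acid receptor RARG rose by 0.27 and 0.31 (edgeR adjusted p = 0.021 and 0.0088), and RARA was not called. CDX2 was not tested, with a mean of 0.0167 CPM in control libraries and 0.352 and 0.420 with the treatments. Of 49 other homeobox genes of the same class, 23 were tested, of which 12 rose and 3 fell after decitabine, 14 rose and 3 fell after the combination, and 1 was higher between the treatments. The last was MSX2, with a difference of 0.40 (edgeR adjusted p = 0.039). GBX2 rose by 0.89 and 0.61 and MSX1 by 0.46 and 0.56, DLX1 fell by 0.84 and 0.58 (edgeR adjusted p between 1.4e-06 and 0.00067), and HHEX was not called. The share of these genes that rose, 52.2% and 60.9% of those tested, stood beside 54.3% and 65.7% of the HOX genes and 36.3% and 35.9% of all genes. Of all genes, 32.5% and 31.3% fell, and between the treatments 7.67% were higher and 8.02% lower, which also stands beside the upstream activators. The sets were not matched by control level. Of all tested genes with control means under 0.5 CPM, 82.7% and 79.5% rose.

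The protein-coding genes nearest to the clusters, up to 1027760 bases away, were looked at as a reference. Of the 23 tested protein-coding neighbours, the 3 nearest on each side of each cluster, 8 rose and 13 fell after decitabine, 7 rose and 11 fell after the combination, and their median log2 fold change was -0.22 and -0.12. Of all genes, 36.3% rose and 32.5% fell after decitabine, and 35.9% and 31.3% after the combination. All tested neighbours except EVX1, SKAP1 and TTLL6 had at least 5 CPM in control libraries. Of all genes at that level, 22.2% rose and 47.8% fell after decitabine, and 23.3% and 45.3% after the combination. EVX1, a homeobox gene 42609 bases from the HOXA cluster, rose by 2.39 and 3.01 (edgeR adjusted p = 5.6e-05 and 5.2e-06). Among the neighbours of highest level, HNRNPA1, 224163 bases from HOXC, fell by 1.20 and 1.29. ATP5MC3 and HNRNPA3, 911011 and 1021787 bases from HOXD, fell by 0.94 and 0.96 after decitabine and by 0.82 each after the combination. TAX1BP1, 539240 bases from HOXA, rose by 0.75 and 0.71 (edgeR adjusted p between 6.9e-08 and 4.3e-06 for all of these). Between the treatments, CBX5 near HOXC was higher after the combination by 0.61 (edgeR adjusted p = 0.00046) and CALCOCO2 near HOXB lower by 0.33 (edgeR adjusted p = 0.0099).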

How the data were processed

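RNA-seq of 9 PC-3 libraries was used. According to the methods and the submitters' processing notes, the authors trimmed reads with Trim Galore 0.6.4 and counted them with kallisto on GRCh38. The authors deposited estimated counts per Ensembl gene, which were rounded here, and log2 CPM values, which were not used. The strand setting and the annotation release are not given in the sources used here. Symbols came from GENCODE release 44, which matched 60357 of 60617 identifiers. Groups came from the labels and doses from the study's methods.

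Genes that passed filterByExpr (18532, of which 35 HOX genes) were fitted with edgeR 4.0.16 in R 4.3.3, with TMM scaling, robust dispersions, 1 mean per group over all 9 libraries and the quasi-likelihood test. The Benjamini-Hochberg adjustment covered every tested gene. The SE of a fold change, in text and figures, was derived from the test and is approximate. It is the absolute log2 fold change divided by the square root of the test's F statistic. The study used voom and limma, which was an alternative here (limma 3.58.1, DESeq2 1.42.0). Sums were scaled CPM, and levels between genes were CPM per 1000 bases of the union of exons. Totals of 21934307 to 22489684 limit the precision of genes at a few counts, and lower bounds put 3 counts in a group at 0. A 95% interval is given for ratios to 1 to 3 control counts.

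The members and lists were chosen with earlier results of these data known. Values in every library are given for HOX genes called between the treatments, with a mean of at least 5 CPM in a group, among the 6 largest changes against control with at least 20 counts, or called with 1 treatment only, and other members were given by ranges or counts. Of each list, the 4 members of highest level and those called between the treatments were named. Genes were also named for exon overlap or place, and EVX1 after its values were seen. A few single genes are not reported here, in text or figures, and stay in the counts, sums and medians. Of the HOX long noncoding RNAs listed, HOXA-AS1 was not matched. The main fit did not pair libraries by replicate number. No library was a copy of another. Python 3.11.15, pandas 2.3.3 and matplotlib 3.10.9 were used for tables and figures.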

Additional observations from a re-analysis of the deposited data

How the results depend on the processing

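The fits were repeated under 17 alternatives: DESeq2's size factors, library size as the only scaling, no filter on low counts, a mean count of 10 or more, the replicate number as a block, only the 6 libraries compared, DESeq2, voom with limma, and leaving out each of the 9 libraries. Of the HOX genes called, 21 of 22 after decitabine, 23 of 25 after the combination and 2 of 5 between the treatments were called wherever they were fitted. The exceptions were HOXA9 after decitabine, HOXA5 and HOXC5 after the combination, and HOXA4, HOXA9 and HOXC9 between the treatments. After decitabine HOXD9 and HOXD10 were fitted under 16 of the 17 alternatives and HOXD11 under 15. After the combination HOXD10 and HOXD11 were fitted under 15. With a mean count of 10 or more, 17 HOX genes rose after decitabine and 21 after the combination. These counts were the same with only the 6 libraries compared. Without the filter, 4 HOX genes fell after the combination instead of 2, namely HOXC4 and HOXB9 in addition. In the same fit 24 rose instead of 23, namely HOXC11 in addition. Leaving out 1 library, between 2 (without decitabine or combination library 2) and 8 (without combination library 3) HOX genes were higher between the treatments, with 3 without decitabine or combination library 1, and over all genes between 381 and 2066 were higher and between 480 and 1997 lower. Of the fold changes not called, 15 were called under some alternative. With library size alone 8 of them were, HOXA3, HOXA11, HOXC8 and HOXC13 after decitabine and HOXA3, HOXA6, HOXA9 and HOXC6 after the combination, all higher. The others were, between the treatments, HOXA5, HOXA7, HOXC5, HOXC10 and HOXC13, of which the last 3 only without 1 library, and after the combination HOXB9 and HOXD4, both lower. With library size as the only scaling, 3746 genes fell after decitabine and 3857 after the combination, and HOXA9 turned from -0.22 to 0.0244 after decitabine. A further 20 fold changes that were not called turned sign under at least 1 alternative, 14 of them only when a library was left out, and none was called where its sign had turned. With 1 library left out, HOXA11 after decitabine ranged from -0.019 to 0.117 (0.309 with library size alone), and between the treatments HOXA13 ranged from -0.0285 to 0.189, HOXB13 from -0.0505 to 0.203 and HOXD13 from -0.0212 to 0.230. Of the 34 fold changes called under no setting, 16 changed sign under some setting.

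The ratios of summed CPM to control were tried under 2 other scalings, added after seeing the data. With library size alone and decitabine they were 1.146 for HOXA, 0.493 for HOXB, 1.648 for HOXC and 3.802 for HOXD, against 0.966, 0.416, 1.388 and 3.206 with TMM. With the combination they were 1.434, 0.505, 2.06 and 3.529, against 1.232, 0.434, 1.769 and 3.031. That scaling moved the median change over all genes to 0.28 and 0.27 on the log2 scale.

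Libraries with the same replicate number showed correlations of their deviations from -0.017 to 0.233, over 0.1 in 2 of 9 pairs. Both pairs joined a decitabine and a combination library, at 0.233 for number 1 and 0.229 for number 3. Decitabine library 1 with combination library 3 stood at -0.22, as did decitabine library 3 with combination library 1. Whether the numbers pair the libraries of these 2 groups was not tested, and the main fit did not pair them. With a replicate block, 19 HOX genes rose and 3 fell after decitabine, 23 rose and 3 fell after the combination (HOXD4 in addition), and 5 were higher and 0 lower between the treatments, where 1766 genes in all were higher and 1890 lower. Without the block 1421 genes were higher and 1487 lower between the treatments. HOX genes with a few counts per library, such as HOXB8, HOXC4 and HOXC11, could not be tested at this depth with the filter on.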
